A study of Mus musculus with 10 samples.

Results

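The 10 left ventricular libraries of this series divided by their content of Myl7, the atrial isoform of the myosin regulatory light chain. Libraries with Myl7 above 50 CPM numbered 6, placebo libraries 1, 2 and 5 and osimertinib libraries 1, 2 and 4. Libraries with Myl7 below 1 CPM numbered 4, placebo libraries 3 and 4 and osimertinib libraries 3 and 5. All 10 of 10 libraries fell on one side or the other, so each treatment group held 3 libraries with and 2 without Myl7. The libraries were chosen by the deposited CPM of Myl7 (reads of a gene scaled to a common library total), which was 74.6 in the lowest library with it (placebo library 2) and 0.899, or 17 reads, in the highest library without it (placebo library 3). Because a measured level defined the classes, differences between them are given as a description, with no test.

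The samples were mouse hearts after transverse aortic constriction (TAC), an operation that narrows the aorta and loads the left ventricle with pressure, sampled as left ventricle. Of these, 5 are labelled TAC with placebo, with vehicle as the treatment, and 5 are labelled TAC with osimertinib, an inhibitor of the EGFR tyrosine kinase used against lung cancer. All 10 carried TAC, and no library of an unoperated heart was used here. The labels give no strain, age, dose or duration, nor do they say that each sample was a separate animal, so p-values measure the spread between these samples, which may be partly technical. The labels describe the cells as all cells of the heart, not an isolated cell type.

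Heart muscle of the atria and the ventricles is built from largely the same sarcomere, but each chamber uses its own light chains and regulators. Atrial muscle makes Myl7 and Myl4, restrains its calcium pump with sarcolipin (Sln) where ventricular muscle uses phospholamban (Pln), and stores natriuretic peptide in secretory granules. Ventricular muscle makes Myl2 and Myl3, and pressure load is known to bring natriuretic peptide genes back in the ventricle. The base of the heart, where atria and ventricles meet, also holds valves, fat, ganglia and parts of the conduction system.

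The promoters of 3 atrial muscle genes are shown because 2 of them, Myl7 and Mybphl, marked the 6 libraries and the third, Nppa, did not. They are RefSeq sequences of GRCm38.p6, running from 250 bases before to 50 after the gene start, 5′ to 3′ on the gene's strand, at chr11:5898733-5899032 on the minus strand for Myl7 and at chr3:108364661-108364960 and chr4:148000472-148000771 on the plus strand for Mybphl and Nppa. Capitals mark matches on either strand to a motif of the T-box family, searched as AGGTGT, to one of the GATA family, searched as AGATAA, to that of NKX2-5, searched as CAAGTG, or to that of the TEAD family, searched as CATTCC. No motif searched overlaps another in these windows.
Myl7: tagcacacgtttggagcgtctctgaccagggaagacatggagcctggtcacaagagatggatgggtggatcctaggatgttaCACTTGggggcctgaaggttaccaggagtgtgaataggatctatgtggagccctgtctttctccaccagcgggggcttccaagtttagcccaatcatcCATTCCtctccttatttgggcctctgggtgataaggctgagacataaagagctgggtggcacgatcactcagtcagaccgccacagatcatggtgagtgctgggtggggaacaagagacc
Mybphl: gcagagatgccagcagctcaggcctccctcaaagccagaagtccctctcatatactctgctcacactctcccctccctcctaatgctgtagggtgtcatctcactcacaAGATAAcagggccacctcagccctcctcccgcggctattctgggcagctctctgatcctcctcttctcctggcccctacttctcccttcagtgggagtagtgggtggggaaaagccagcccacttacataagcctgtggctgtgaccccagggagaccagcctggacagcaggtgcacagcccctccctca
Nppa: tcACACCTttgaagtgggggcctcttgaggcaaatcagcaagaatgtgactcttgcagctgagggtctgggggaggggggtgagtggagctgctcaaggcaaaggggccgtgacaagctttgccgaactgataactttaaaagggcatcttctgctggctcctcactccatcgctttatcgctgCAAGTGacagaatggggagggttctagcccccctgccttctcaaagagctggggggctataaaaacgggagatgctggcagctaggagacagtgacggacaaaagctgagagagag
The Myl7 window held an NKX2-5 and a TEAD match, the Mybphl window a GATA match, and the Nppa window a T-box and an NKX2-5 match. Over all 32851 promoters of this length, 13.7% held AGGTGT, 11.2% AGATAA, 13.6% CAAGTG and 14.7% CATTCC, so single matches are common. The Myl4 window held none of these letters, and the Fmod window held a GATA match. A match is a description of these letters and not a binding site.

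Levels below are rescaled CPM, the deposited CPM divided by one factor per library so that the median gene is level between libraries. Depth ranged from 15863265 to 21309296 reads. Mitochondrially encoded genes took 35.9% to 63.4% of the counts in the libraries with Myl7, highest in placebo library 5, and 31.7% to 44.1% in those without it. Haemoglobin genes took 0.00844% to 0.0410% with Myl7 and 0.0453% to 0.0638% without it, so that the classes did not overlap. The part of these shares in the differences below was not tested. In bulk tissue, fewer cells of a type and less RNA per cell cannot be told apart.

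The class difference of a gene is the coefficient of the Myl7 class, with minus without, in log2(rescaled CPM + 0.5) with treatment in the same fit, and SE is its standard error. A gene is said to separate the classes when the 6 and the 4 libraries do not overlap and the difference is at least 1, a 2-fold change. Of 12559 genes tested, 45 separated the classes as higher with Myl7 (0.358%) and 31 as lower (0.247%), together 0.605%. The median difference over all genes was 0.02. Of the 45 higher genes, 26 reached the filter of 1 CPM in 4 libraries only through the libraries with Myl7 and so had to differ, and their number supports nothing. The count of higher genes was 89 without placebo library 2, the library with the least Myl7 of the 6. The count of lower genes was 103 without osimertinib library 2, 47 without placebo library 4 and 53 without osimertinib library 3.

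Myl7 and several other atrial muscle genes were at a few reads or low levels in the 4 libraries and plentiful in the 6, while others, such as Nppa and Pam, were at similar levels in both. Myl7 (chromosome 11, 5896637 to 5898782, GRCm38) lay at 256, 55.4 and 267 rescaled CPM in placebo libraries 1, 2 and 5 and at 267, 310 and 1148 in osimertinib libraries 1, 2 and 4. The other 4 held 0.862 and 0 in placebo libraries 3 and 4 and 0.288 and 0.325 in osimertinib libraries 3 and 5. Osimertinib library 4 had the most Myl7 and placebo library 2 the least of the 6. Myl4, the atrial essential light chain (chromosome 11, 104550663 to 104595753), ranged from 49.7 through a median of 290 to 1120 with Myl7 and was 1.47, 2.23, 1.15 and 1.62 without it, in the same order of libraries. Sln (chromosome 9, 53850164 to 53854560), the atrial brake on the calcium pump, ranged from 14.2 through 65.2 to 290. It was 0.101, 2 reads, in placebo library 3 and 0 in the other libraries without Myl7. The class differences were 8.36 (SE 0.54) for Myl7, 7.02 (SE 0.53) for Myl4 and 6.82 (SE 0.51) for Sln. With most of the lower values near 0 their size depends on the 0.5 added, and the difference of Sln was 8.95 with 0.1 added and 4.93 with 2.

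Mybphl, a myosin-binding protein of atrial muscle (chromosome 3, 108364911 to 108380057), ranged from 6.56 through 27.7 to 133 and was 0.152, 0.0656, 0.192 and 0.162 without Myl7. Dkk3, a secreted protein of the Dickkopf family (chromosome 7, 112116017 to 112159057), ranged from 9.37 through 44.8 to 168 and was 2.08, 1.31, 4.51 and 3.09 without Myl7, so it kept a low level where Mybphl was at a few reads. The differences were 5.48 (SE 0.45) and 3.77 (SE 0.43). Hamp, which encodes the iron hormone hepcidin, ranged from 0.234 through 4.19 to 17.4, and it was 0 in 3 of the libraries without Myl7 and 0.0959 in osimertinib library 3. The lowest Hamp value of the 6 libraries was again that of placebo library 2.

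**Figure D1:**
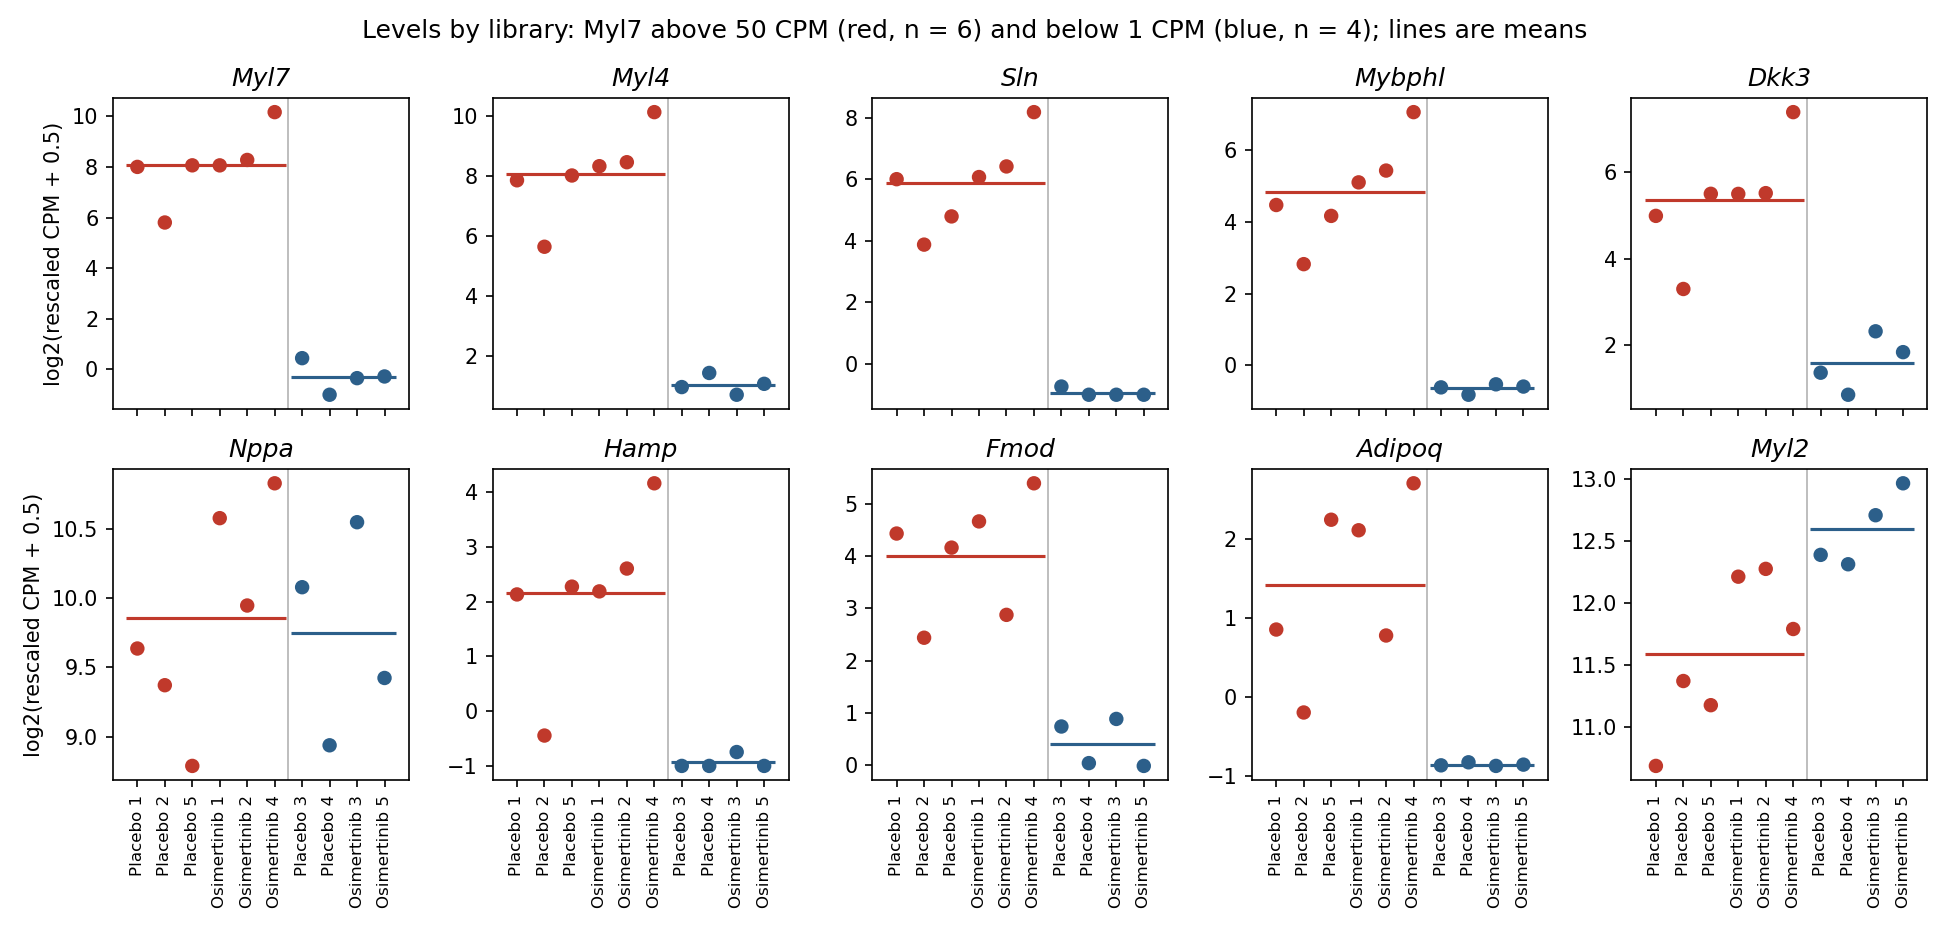
Level of 10 genes in each library as log2(rescaled CPM + 0.5), with the 6 libraries with Myl7 in red, the 4 without in blue and a line at each class mean. Myl7, Myl4, Sln, Mybphl, Dkk3, Hamp, Fmod and Adipoq do not overlap between the classes, Nppa does, and Myl2 is lower in all 6 libraries with Myl7.

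In the list of 14 atrial muscle genes, 12 were tested, 6 separated the classes as higher and 12 of 12 had a positive difference, against 6551 of all 12559 genes. Myl7, which defines the classes, is in this list, so the count is a description. Of the separating members, Myl7, Sln, Mybphl and Hamp passed the filter only through the libraries with Myl7 and so had to differ. Nppa, the atrial natriuretic peptide (chromosome 4, 148000722 to 148002079), was the member that followed the classes least. It ranged from 442 through 891 to 1818 with Myl7 and was 1081, 490, 1497 and 686 without it, and the classes overlapped widely, with a difference of 0.11 (SE 0.30). Leaving out 1 library moved it between -0.19 (without osimertinib library 5) and 0.41 (without placebo library 3). Pam, the enzyme that amidates peptides in atrial granules (0.46, SE 0.26), Kcnj3, a subunit of the acetylcholine-gated potassium channel (0.89, SE 0.27), and Stard10 (1.49, SE 0.42) overlapped between the classes too. Bmp10, a growth factor of the right atrium, was listed at 0 in all 10 libraries.

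Ventricular light chains were lower where the atrial ones were present. Myl2 (chromosome 5, 122100951 to 122113472) was 1649, 2648, 2314, 4739, 4950 and 3539 in the 6 libraries with Myl7, in the order given above, and 5353, 5079, 6678 and 7979 in those without. The highest value with Myl7 stayed under the lowest without it, and the difference was -1.01 (SE 0.23). Irx1, a homeobox factor of ventricular septal muscle, was 0.374 to 1.13 with Myl7 and 1.72 to 3.80 without it, a difference of -1.40 (SE 0.24). Myl3, the ventricular essential light chain, overlapped between the classes, with a difference of -1.27 (SE 0.25), because osimertinib library 2 with 3442 lay above placebo libraries 3 and 4 with 3083 and 3002. Irx4 (-0.03) and Hey2 (0.19), regulators of ventricular identity, showed no such difference. Of the 13 ventricular genes, 2 separated the classes as lower, 1 had a positive difference and the median was -0.81, and with quantile normalization 3 did and the median was -0.36.

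The contractile genes that both chambers share were lower in the same libraries as the ventricular ones. Among 18 sarcomere genes none had a positive difference, the median was -0.82 and none separated the classes. Their summed level was 16898 to 36854 rescaled CPM with Myl7 and 33750 to 52858 without it. Actc1, cardiac actin, named here after its values were seen, was 848 to 1117 in the placebo libraries with Myl7 and 2571 to 2772 in those without, and 2583 to 3808 against 6148 to 6950 under osimertinib. Within each treatment group the classes of Actc1 did not overlap, with differences of -1.41 and -1.11, while across treatments they did. With quantile normalization the median difference of the shared sarcomere list was -0.38 and 14 of its 18 genes stayed negative, and with the other 2 scalings 17 and 18 did. Hrc, a calcium-binding protein of the sarcoplasmic reticulum, ranged from 97.6 to 283 with Myl7 and from 296 to 449 without it. Its difference of -1.01 (SE 0.16) went against that of Sln and of Cacna2d2, a calcium channel subunit at 0.562 to 18.0 with Myl7 and 0.288 to 0.558 without. The calcium handling list of 15 tested genes therefore held 2 separating genes that were higher and 1 that was lower, with a median of -0.47. Sln and Cacna2d2, the 2 higher genes, passed the filter only through the libraries with Myl7 and so had to differ.

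**Figure D2:**
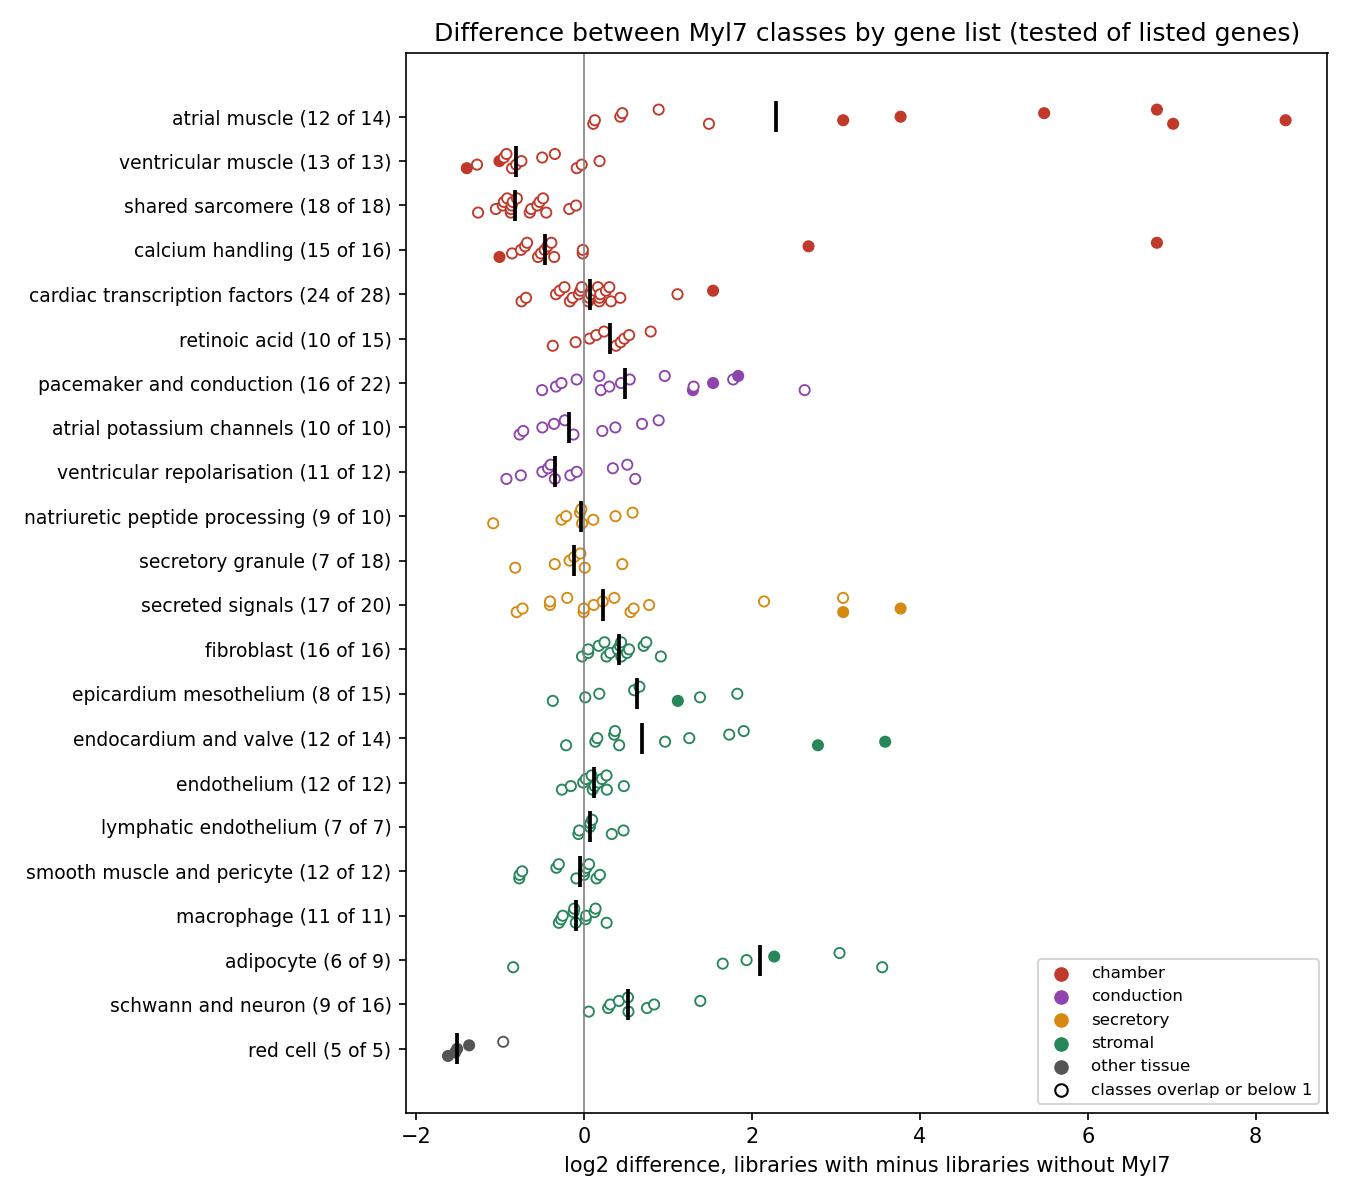
Class difference in log2 of each tested gene, one line per gene list with the number tested of the number listed, filled where the gene separates the classes and open where it does not, with a bar at the list median. Atrial muscle (median 2.29) and adipocyte genes (2.10) lie to the right, ventricular (-0.81), shared sarcomere (-0.82) and red cell genes (-1.51) to the left.

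Nuclear genes of the mitochondrion were on the same side as the sarcomere genes. These families were taken by gene symbol after the data were seen. All 46 complex I genes with symbols Nduf (median -0.86), all 16 ATP synthase genes with symbols Atp5 (-0.84) and all 78 mitochondrial ribosomal protein genes (-0.69) had negative differences. Each of those counts was the same with deposited CPM, with CPM without mitochondrially encoded genes, with quantile normalization and without any one library, while the Atp5 median was -0.49 with quantile normalization. Cytosolic ribosomal protein genes had a median of -0.16, with 75 of 80 negative. By the classes' own values, the separating genes lower with Myl7 included Ndufb8, a complex I subunit, Cpt2, a carnitine transferase of fatty acid import, and Mgst3, a membrane glutathione transferase. Mgst3 was 39.3 to 66.2 with and 151 to 154 without Myl7 under placebo, and 122 to 142 against 215 to 281 under osimertinib.

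Other large differences in this direction were those of Lrtm1 (-1.55), Fbp2, the muscle form of fructose bisphosphatase (-1.55), Ogdhl, a relative of an enzyme of the citric acid cycle (-1.54), and Scgb1c1 (-1.20). Lrtm1 was 14.3 to 36.8 with Myl7 and 49.0 to 95.2 without it. Red cell genes were lower in the same libraries. Hbb-bs, an adult beta globin, was 58.7, 106, 72.7, 82.4, 28.7 and 43.5 with Myl7 and 159, 193, 158 and 243 without it, a difference of -1.62 (SE 0.28). All 4 globin genes of the 5 red cell genes separated the classes, and Alas2, the haem synthesis enzyme of red cell precursors, had -0.96 and did not. The globin genes are near-identical pairs, so the division of reads within a pair is uncertain.

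Among conduction genes, the calcium channels Cacna1h and Cacna1d and the nodal regulator Shox2 were higher with Myl7, and most other members overlapped between the classes. Of 22 pacemaker and conduction genes 16 were tested and 3 separated the classes, all higher (0.358% of all genes did), and of these Shox2 passed the filter only through the libraries with Myl7. Cacna1h, a T-type calcium channel of pacemaker tissue, was 36.4, 16.7, 46.4, 42.1, 25.2 and 77.5 with Myl7 and 8.16, 14.8, 8.20 and 9.42 without it, a difference of 1.84 (SE 0.33). Cacna1d, the L-type channel of nodal and atrial cells, was 2.09 to 6.31 against 0.704 to 1.47 (1.3, SE 0.29). Shox2, a transcription factor of the sinus node and the venous pole, was 0.656 to 4.40 against 0.144 to 0.406 (1.54, SE 0.31), and it is present at few reads. Gja5, the connexin of atria and Purkinje fibres, was 3.51 to 10.5 against 6.49 to 9.23 and had a difference of -0.09. Tbx3 (0.30) and Tbx18 (0.18), regulators of nodal identity, overlapped as well, and Isl1 was at 0 in all libraries but 1.

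Markers of the ventricular conduction system varied within the 6 libraries. Cpne5 and Cntn2, both known from Purkinje cells and named here after their values were seen, were at 0.0937 and 1.59 in placebo library 2 and at 1.88 to 11.3 and 9.48 to 34.2 in the other 5. In the libraries without Myl7 they ranged from 0.0959 to 0.459 and from 1.49 to 7.80, so neither separated the classes. Their differences were 2.63 (SE 0.67) and 1.78 (SE 0.69). Hcn4, the pacemaker channel, was below the filter, with 0.0468 to 1.35 with Myl7 and 0.0507 to 0.325 without it. Vsnl1, a sinus node calcium sensor, was also below it, and was 0 in all 4 libraries without Myl7 and in placebo library 2 and 0.405 to 2.85 in the other 5.

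None of the 10 atrial potassium channel genes or of the 11 tested ventricular repolarisation genes separated the classes. With 0.605% of all genes separating, none is the likely count in lists of this length. The medians were -0.18 and -0.35. Kcnj5, the partner of Kcnj3 (0.37), Kcna5, the ultra-rapid current (-0.23), and Kcnk3, a background channel (-0.72), had differences of both signs. Among 24 tested cardiac transcription factors 1 separated, Shox2, and the median was 0.07. Tbx5, a factor of atria and conduction, was 3.51 to 27.5 with Myl7 and 2.48 to 5.42 without it (1.11, SE 0.29), and placebo library 2 alone lay inside the range of the other class. Nr2f2, which sets atrial identity in development, had 0.43.

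Genes of the secretory machinery had list medians near that of all genes, while a few secreted proteins were higher with Myl7. None of 9 tested genes of natriuretic peptide processing and none of 7 tested granule genes separated the classes. Only 0.605% of all genes did, so none is the likely count in lists this short. The 2 medians were -0.03 and -0.12, against 0.02 for all genes. Nppb, the second natriuretic peptide, was 59.4 to 508 with Myl7 and 143 to 605 without it (-1.08, SE 0.42), and Corin, the protease that cuts the pro-peptide, was 38.6 to 74.8 against 36 to 72.5 (-0.03). The neuroendocrine granule proteins Chga and Scg2 were below the filter, at or under 0.206 rescaled CPM in every library. Of 17 tested secreted signals Dkk3 and Hamp separated, and Hamp passed the filter only through the libraries with Myl7 and so had to differ. Sfrp5, a secreted Wnt inhibitor named after its values were seen, was 4.36 to 28.9 in 5 of the libraries with Myl7, 0.281 in placebo library 2 and 0.192 to 1.01 in those without (3.09, SE 0.77).

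Receptors and signalling proteins outside the lists were among the largest differences. Rxfp1, Ptgfr, Ppp1r1b and Tmem163 all passed the filter only through the libraries with Myl7 and so had to differ. Rxfp1, the relaxin receptor, was 0.609 to 12.6 with Myl7 and at most 0.131 without it (2.72, SE 0.44). Ptgfr, the prostaglandin F receptor, was 1.03 to 12.7 against 0.253 to 0.595 (2.15, SE 0.35). Ppp1r1b, a phosphatase inhibitor known from dopamine-responsive neurons, was 0.515 to 11.8 against 0.0479 to 0.152 (2.45, SE 0.46), and Tmem163, a zinc transporter, was 0.516 to 15.5 against 0.0656 to 0.203 (2.27, SE 0.49). Placebo library 2 was the lowest of the 6 in 28 of the 45 higher genes, and osimertinib library 4 was the highest in 37.

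Fmod and Chad of the endocardium and valve list, and Cilp2 from outside it, were higher with Myl7. Fmod (fibromodulin, a collagen-binding proteoglycan of tendon and valve) was 21.1, 4.92, 17.4, 24.9, 6.84 and 41.6 with Myl7 and 1.17, 0.524, 1.34 and 0.487 without it, a difference of 3.59 (SE 0.48). Chad (chondroadherin, a cartilage matrix protein) was 1.01 to 10.4 with Myl7, 0.0656 in placebo library 4 and 0 in the other 3 (2.79, SE 0.44). Cilp2, a matrix protein of cartilage, was 1.97 to 25.2 against 0.192 to 0.710 (3.06, SE 0.48). It passed the filter only through the libraries with Myl7 and so had to differ. Comp, a cartilage matrix protein named after its values were seen, was 7.12 to 33.3 against 3.68 to 8.25 and did not separate, with placebo library 2 inside the other class. In the endocardium and valve list 2 of 12 tested genes separated, against 0.358% of all genes as higher. Of the 2, Chad passed the filter only through the libraries with Myl7 and so had to differ. In the list 11 genes had a positive difference, against 6551 of all 12559 genes, and the median was 0.69. Npr3, the natriuretic peptide clearance receptor of endocardium, had -0.21.

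Of 6 tested adipocyte genes 1 separated the classes, against 0.605% of all genes. It was Adipoq, which passed the filter only through the libraries with Myl7 and so had to differ. Adipoq (adiponectin) was 1.31, 0.375, 4.23, 3.81, 1.22 and 6.01 with Myl7 and 0.0507, 0.0656, 0.0479 and 0.0541 without it, a difference of 2.27 (SE 0.45). Cfd (adipsin) and Car3 (carbonic anhydrase of fat and muscle), named after their values were seen, were 1.59 to 29.3 and 1.03 to 25.4 with Myl7 and 0.131 to 1.73 and 0.328 to 1.3 without it. Placebo library 2 was again the lowest, and it overlapped the other class in both. The list had a median of 2.10, and its summed level, 9.18 to 75.2 with Myl7 and 12.1 to 19.3 without it, overlapped. Cidea, also expressed in heart muscle, was its only negative member with -0.84.

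Among genes of fibroblasts, vessels and macrophages none separated the classes. With 0.605% of all genes separating, none is the likely count in lists of this length. Of 16 fibroblast genes 15 had a positive difference, against 6551 of all 12559 genes. The median of the fibroblast genes was 0.42, with Col1a1 (collagen I) at 0.51 and Dcn (decorin) at 0.31. Their summed level was 1554 to 5045 with Myl7 and 1723 to 2446 without it. In the epicardium and mesothelium list Krt18, a keratin that passed the filter only through the libraries with Myl7, separated (1.17 to 2.40 against 0.262 to 0.623, a difference of 1.12). Upk3b, a mesothelial uroplakin, did not, with 3.24 to 18.8 in the 3 osimertinib libraries with Myl7 but 0.206 to 1.5 in the 3 placebo ones and 0.0656 to 0.811 in those without, and Wt1 had 0.02. Endothelial (median 0.12, Pecam1 0.09), lymphatic (0.08), macrophage (-0.10) and smooth muscle genes (-0.04, Myh11 0.06) held no separating gene. With quantile normalization the endothelial median was 0.40, with 12 of 12 positive against 9. The 9 tested Schwann cell and neuron genes all had positive differences, with a median of 0.52, and none separated. Lung, thymus and skeletal muscle markers each summed to at most 4.77 rescaled CPM in any library.

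How closely a gene kept pace with Myl7 was read in the 6 libraries as its ratio to Myl7, relative to the median ratio. Myl4 and Dkk3 stayed within a 1.34-fold and a 1.38-fold range, although Myl7 itself ran from 55.4 to 1148. Ptgfr (1.79-fold), Rxfp1 (1.81-fold), Ppp1r1b (1.84-fold), Mybphl and Cilp2 (both 2.11-fold) followed. Sln covered 2.69-fold, and only placebo library 5, at 0.406 of the median, stood away from the 0.990 to 1.09 of the other 5. Wider ranges belonged to Cacna2d2 (3.79-fold), Adipoq (4.03-fold), Fmod (4.22-fold), Hamp (4.26-fold), Chad (6.97-fold) and Tmem163 (9.63-fold). Fmod and Chad were lowest relative to Myl7 in osimertinib library 2 (0.299 and 0.248), Hamp in placebo library 2 (0.279) and Tmem163 in placebo library 5 (0.176). There Hamp and Tmem163 were at 0.234 and 0.516 rescaled CPM, a few reads each, so their ranges are uncertain.

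**Figure D3:**
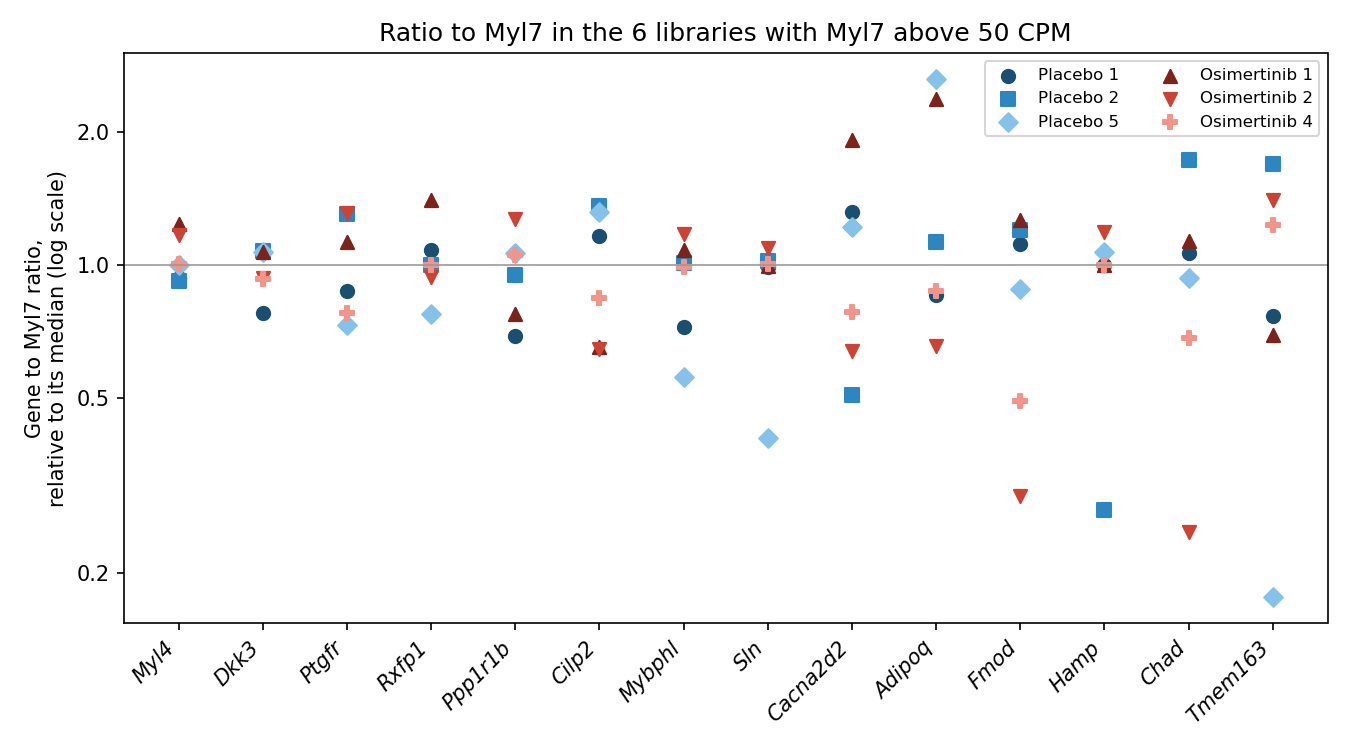
Ratio of 14 genes to Myl7 in each of the 6 libraries with Myl7, divided by the gene's median ratio, on a log scale and ordered by range. Myl4 and Dkk3 stay within 1.34-fold and 1.38-fold, while Fmod and Chad drop to 0.299 and 0.248 in osimertinib library 2 and Tmem163 to 0.176 in placebo library 5. The Tmem163 value there rests on a few reads.

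The class contrast can be read in each treatment group on its own, with 3 libraries against 2. Under placebo 96 genes separated as higher with Myl7 (0.764%) and 317 as lower (2.52%), and under osimertinib 149 (1.19%) and 100 (0.796%). Of the 96 higher under placebo, 42 (43.8%) were also higher under osimertinib, which is 28.2% of the 149 there. Of the 317 lower under placebo, 39 (12.3%) were also lower under osimertinib, which is 39% of the 100. The placebo and the osimertinib counts use different libraries. Myl7, Myl4, Sln, Mybphl, Dkk3 and Fmod had differences of 7.57, 5.96, 5.76, 4.54, 3.49 and 3.29 under placebo and of 9.15, 8.07, 7.89, 6.42, 4.05 and 3.88 under osimertinib.

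**Figure D4:**
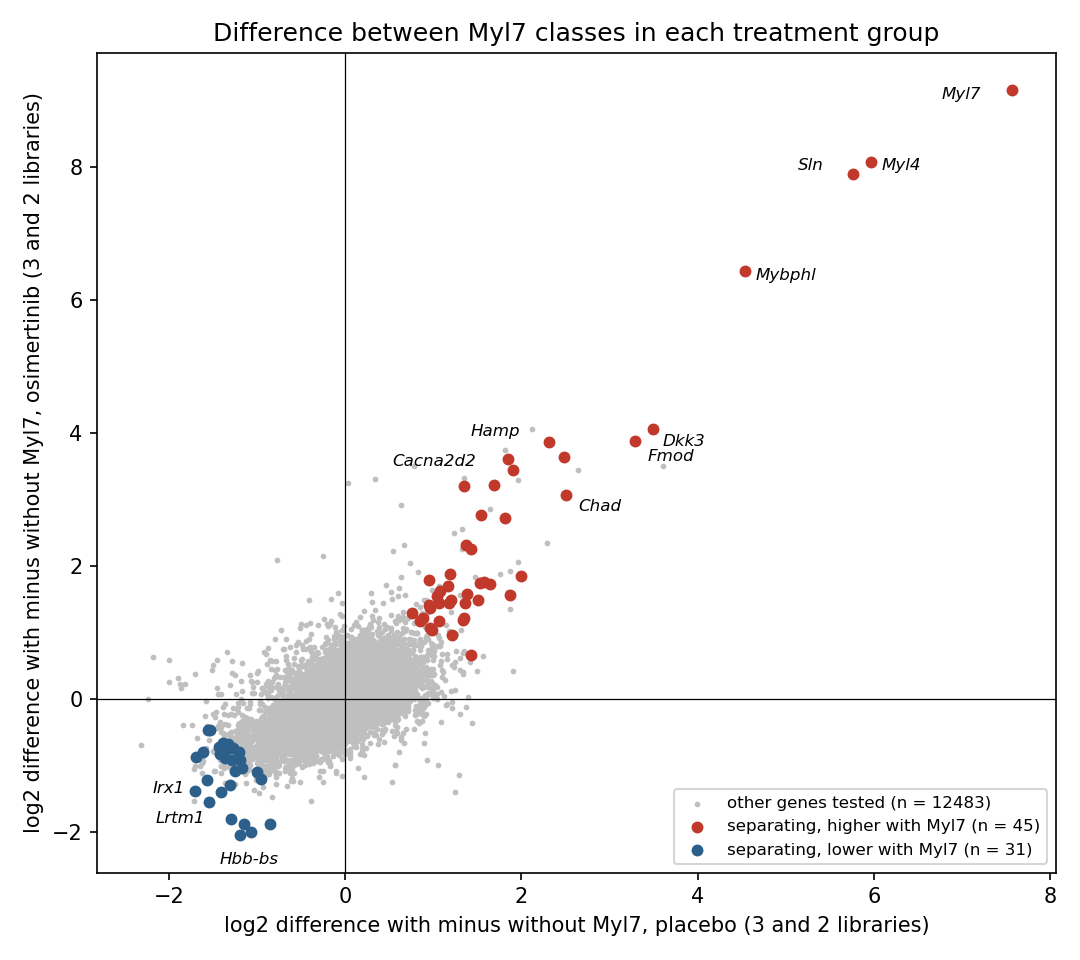
Class difference in log2 within placebo (horizontal) and within osimertinib (vertical) for each tested gene, with the 45 genes that separate as higher in red and the 31 that separate as lower in blue. The atrial markers lie at the upper right, and the lower genes lie further from 0 under placebo than under osimertinib except for the globin genes, Lrtm1, Ogdhl, Ndufaf6 and Gsta1.

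Because each treatment group held the same number of libraries of each class, the effect of osimertinib could be tested with the class as a covariate, a contrast the choice of libraries did not use. In limma with Benjamini-Hochberg adjustment over 12559 genes, 2405 genes rose (19.1%) and 1934 fell (15.4%), 34.5% in all. Without the covariate 1272 rose and 1280 fell, and all 1272 and 1280 were among those called with it. With deposited CPM and the covariate, where limma's prior degrees of freedom were infinite, 1080 rose and 28 fell, with CPM without mitochondrially encoded genes 1376 and 558, so the balance of directions depends on the scaling. The median fold change over all genes was 0.01 after rescaling and 0.27 in deposited CPM.

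Phyh, a peroxisomal enzyme of branched fatty acid breakdown, is one example. It was 41.5 to 54.6 in placebo libraries with Myl7, 94.3 to 101 in placebo libraries without, 112 to 148 in osimertinib libraries with and 248 to 267 in osimertinib libraries without. No 2 of these 4 sets overlapped, and osimertinib raised it by 1.41 on the log2 scale (SE 0.11, limma adjusted p 2.95e-05). Smpx, a small muscle protein, and Pmpcb, a subunit of the mitochondrial processing peptidase, rose by 1.23 (SE 0.09) and 1.22 (SE 0.09) with the same limma adjusted p. Helz2, a helicase and nuclear receptor coactivator, was 82.8 to 96.7, 72.8 to 80.4, 47.5 to 50.6 and 32.0 to 36.8 in the same order of sets and fell by 0.96 (SE 0.09, limma adjusted p 0.000102). Tcirg1, a proton pump subunit, fell by 0.86, and Map4k2, a kinase, fell by 1.00 (both limma adjusted p 0.000105). In deposited CPM these 3 decreases did not pass, with limma adjusted p of 0.151 to 0.273.

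**Figure D5:**
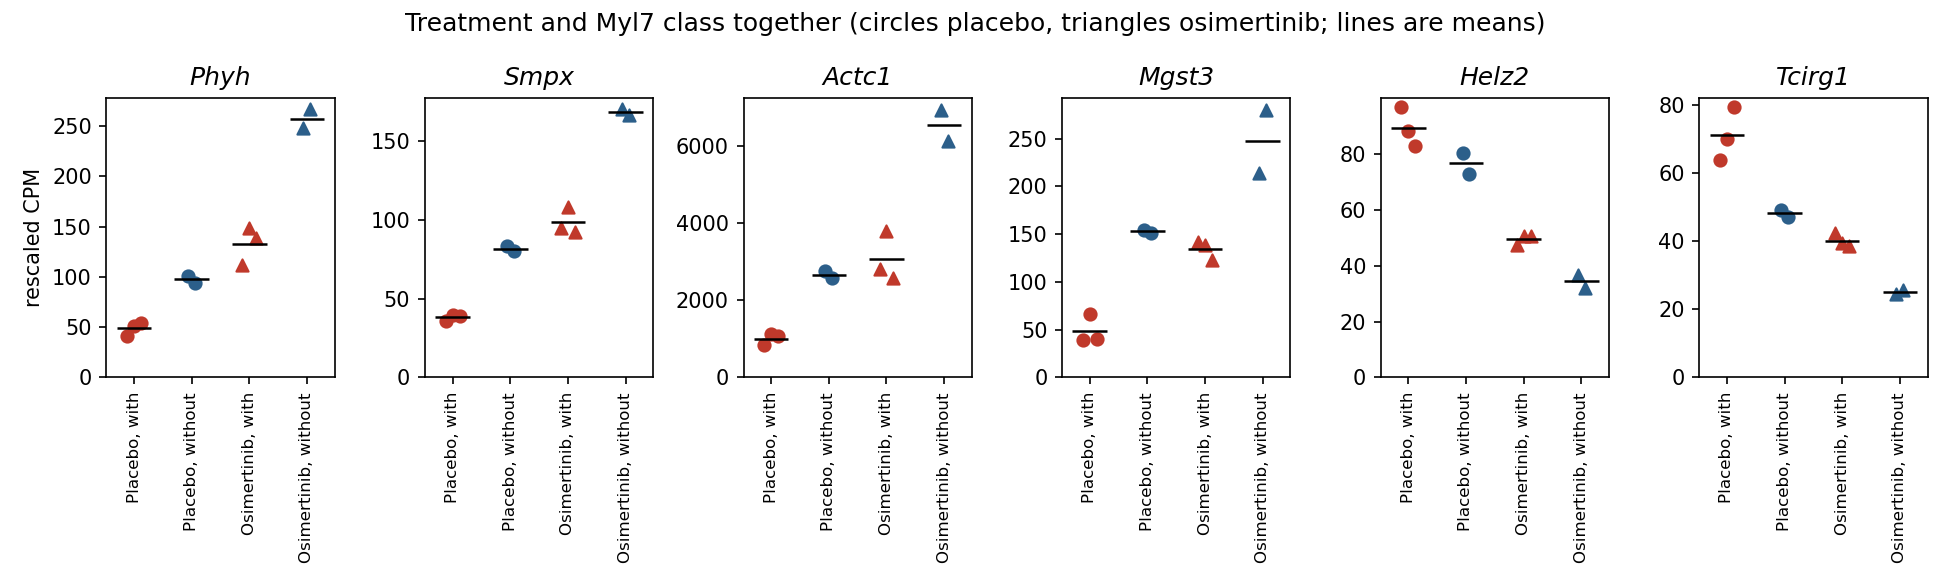
Rescaled CPM of 6 genes by treatment and Myl7 class, placebo as circles and osimertinib as triangles, with a line at the mean of each set of 3 or 2 libraries. Phyh runs from 41.5 to 54.6 in placebo libraries with Myl7 up to 248 to 267 in osimertinib libraries without it, and Tcirg1 is lowest in the latter.

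More contractile and mitochondrial genes were called as higher under osimertinib with the class in the fit than without it. The classes are balanced over treatment, so the fold changes are the same in both fits and only their SE differs. For Smpx the fold change was 1.23 in both, with an SE of 0.09 with the class and 0.28 without it. Of 18 shared sarcomere genes 13 rose and none fell, against 9 without the covariate, and with quantile normalization 10 rose and 1 fell. Actc1 rose by 1.47 (SE 0.18, limma adjusted p 0.000191). Of the Nduf genes 35 of 46 rose against 12 without the covariate, of the Atp5 genes 13 of 16 against 5, and of the mitochondrial ribosomal genes 70 of 78 against 19, and none fell. With deposited CPM 29 of 46, 13 of 16 and 34 of 78 rose. Over all 12559 genes, 2405 rose with the covariate, 1272 without it and 1080 with deposited CPM and the covariate. Of the 31 genes that were lower with Myl7, 16 rose under osimertinib and none fell, against 19.1% of all genes that rose. Of the 45 higher with Myl7, 3 rose and 1 fell.

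Among atrial muscle genes, the calls of Mybphl, Dkk3 and Nppa were lost when single libraries were left out. Myl7 defines the covariate, so its own test is not given. Myl4 (0.96, SE 0.52) and Sln (1.15, SE 0.50) did not pass, with limma adjusted p of 0.176 and 0.0928. In deposited CPM, without rescaling, both passed (limma adjusted p 0.00439 and 0.000821), in a fit whose infinite prior degrees of freedom leave a gene's own spread out of the SE. Of the 12 atrial muscle genes tested, 5 rose, against 19.1% of all genes, Mybphl by 1.29 (SE 0.44, limma adjusted p 0.0386), Dkk3 by 1.31, Nppa by 0.90, Kcnj3 by 1.08 and Pam by 1.52. With the level of Myl7 in place of its class as the covariate, the values were 0.69 for Mybphl, 0.89 for Dkk3, 0.19 for Myl4 and 0.40 for Sln. In that fit Mybphl and Dkk3 still passed (limma adjusted p 0.0160 and 0.00924), and Myl4 and Sln did not (0.606 and 0.238). With quantile normalization Nppa was at 0.49 (limma adjusted p 0.242), and without mitochondrially encoded genes its limma adjusted p was 0.0923. Without placebo library 2 or without osimertinib library 4, 2 rose, without placebo library 5, 3 did, and in deposited CPM 10 did. Without placebo library 2 the limma adjusted p was 0.0835 for Mybphl, 0.0556 for Dkk3 and 0.0573 for Nppa, and without osimertinib library 4 it was 0.0691, 0.0591 and 0.0782. Other omissions also ended these calls, for Mybphl that of placebo library 1 or 5 or osimertinib library 2, for Dkk3 that of placebo library 4 or osimertinib library 3, and for Nppa that of placebo library 4 or 5 or osimertinib library 1 or 3.

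Whether osimertinib acted differently in the libraries with and without Myl7 was tested as an interaction. In limma no gene passed (0%), with 903 genes at an unadjusted p under 0.05 and a smallest adjusted p of 0.522. For Myl2 the difference of the osimertinib effect was 0.53 on the log2 scale. For Myl7 and the atrial genes near 0 without it, the choice of the libraries fixes this difference, and it is not given. With 3 and 2 libraries in each set, a gene that does not pass is not shown to respond alike in both classes.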

How the data were processed

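Poly(A) RNA of left ventricle was measured in 10 libraries, which the labels' protocols describe as made with oligo(dT) beads. The deposited values are CPM: the authors divided each gene's reads by the library total, and each column sums to 1000000. The design text names STAR and RSEM on GRCm38 and a library kit that keeps strand. The submitters' processing notes name cutadapt 1.9, HISAT2 2.0.4, StringTie 1.3.4d, DESeq2 and the build hg38 instead. Symbols and coordinates came from GENCODE M21 of GRCm38, which held 45143 of the 45706 identifiers (98.8%).

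Steps between low CPM showed what 1 read is worth and so the depth. Values under 200 reads were whole to within 0.01 read in 90.7% to 93.4% of cases, too few for a count test. A gene was tested when 4 or more libraries reached 1 CPM (12559 genes), the size of the smaller class, so that a gene present in either class can pass. Libraries were rescaled by median ratio, with factors of 0.455 for placebo library 5 and 0.926 to 1.35 for the rest, and analysed as log2(rescaled CPM + 0.5), which understates changes of low genes. All 45 pairs of libraries differed by more than sampling noise (chi-square at least 22.7 per degree of freedom).

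The osimertinib effect and the interaction were tested with limma 3.58.1 in R 4.3.3, with an intensity trend, two-sided, called at an adjusted p of 0.05, after a check on simulated data. Members, lists and the rule for named genes were chosen with earlier results of these data known. The rule took preset genes, the 15 largest positive and 10 largest negative differences among separating genes with a mean of at least 2 rescaled CPM, up to 4 separating members of each list and the 3 lowest p of each tested effect and direction. Cidea, Alas2, Stard10, Chga, Scg2, Vsnl1, Cpt2 and Ndufb8 and the genes marked so in the text were named after their values were seen. Reads of near-identical genes are uncertain. Pseudocounts, filters, scalings, the covariate, the replicate block and leaving out each library were varied.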

Additional observations from a re-analysis of the deposited data

Results flagged for a closer look

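In 118 sets of 4 or 6 libraries a single library stood apart from the rest of its class in 7. The gap criterion used is met by chance in about 1 of 20. Each set was a gene, the mitochondrial share or the rescaling factor within a Myl7 class, and all 7 were genes. Values are log2(rescaled CPM + 0.5), where -1 is a gene at 0. Among the libraries without Myl7, placebo library 3 stood apart for Sln (-0.73, the other 3 at -1), for Irx4 (3.82, the others 4.55 to 4.60) and for Ptgfr (-0.41, the others 0.10 to 0.13). In the same class osimertinib library 3 stood apart for Hamp (-0.75, the others -1), placebo library 4 for Chad (-0.82, the others -1) and osimertinib library 5 for Hbb-bt (5.45, the others 4.87 to 4.95). Among the libraries with Myl7, osimertinib library 2 stood apart for Myh11, the smooth muscle myosin (4.14, the others 5.03 to 5.47). The Sln, Hamp and Chad values rest on 1 or 2 reads.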

How the results depend on the processing

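Of 1241 class differences recomputed for 67 named genes under 19 settings, 1188 moved by less than the residual SD, 53 by more and none changed the sign of a separating gene. Changing the filter leaves the differences as they are by construction. A gene whose classes do not overlap can hardly change sign when a library is left out or another pseudocount is added. Much of this stability was therefore fixed in advance. The separating counts, 45 higher and 31 lower, were 15 and 0 at a difference of 2, 22 and 14 with 2 added before the logarithm, 15 higher at a mean of at least 5 CPM, 12 lower in deposited CPM and 82 and 11 in CPM without mitochondrially encoded genes, where the median difference of all genes was 0.14. Required within each treatment group, they were 42 and 39. Leaving out 1 library gave 33 to 89 and 21 to 103, and osimertinib counts of 1851 to 2835 higher and 1395 to 2328 lower.

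The osimertinib counts, 2405 higher and 1934 lower, were 1080 and 28 in deposited CPM (97.5% higher against 55.4%), 1376 and 558 without mitochondrially encoded genes and 1272 and 1280 without the covariate. Of 275 values for 12 named genes, 27 lost and 5 gained a call, and none changed direction. The gained calls include that of Myl7 in deposited CPM, which is not read because Myl7 defines the covariate. The filters, the replicate block, the fit without trend and the fit without the covariate leave the fold changes as they are. Those settings could not change a direction. The interaction, 0 genes in the rescaled values, gave 0 without each library and 5 in deposited CPM (Fgf12, Upk3b, Sbk3, Hspa1b and Gm43305), where limma's prior degrees of freedom were infinite and a gene's own spread did not count. The small list medians of granule (0.01), natriuretic (0.09), macrophage (0.02) and smooth muscle genes (0.08) were positive without mitochondrially encoded genes, and that of lymphatic genes was negative with quantile normalization. The cause of these changes was not tested.

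Replicate numbers are shared by the treatment groups. Same-numbered libraries had correlations of their deviations of 0.426, 0.236, 0.462, -0.343 and -0.167, and 5 of 10 libraries correlated best with their own number. Positive values belonged to numbers with the same Myl7 class in both groups and negative ones to numbers with opposite classes. Pairing and class cannot be told apart by these values. The main fits did not take the numbers as pairs. With the replicate block, 67 genes separated as higher and 52 as lower, 2729 rose and 2284 fell with osimertinib, and 0 passed the interaction, and Myl4 and Sln passed for osimertinib (limma adjusted p 0.0458 and 0.0283). Libraries numbered 4 and 5 are of opposite classes in the groups. A gene at 0 is limited to 3 reads, at most 0.189 CPM, so differences among genes below the filter were not resolved at this depth.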

Other observations

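Several further genes, picked after their values were seen, separated the classes as higher with Myl7. Tnni1, the troponin I of slow muscle and of the fetal heart, was 0.456 to 4.44 rescaled CPM with Myl7 and 0.0656 to 0.216 without it, a class difference of 1.72 on the log2 scale. Wnt9b, a Wnt ligand known from valve endothelium, was 0.710 to 6.19 against 0.192 to 0.595 (1.92), and Adamts19, a metalloprotease of valves, was 0.963 to 3.13 against 0.144 to 0.406 (1.69). Ryr3, a calcium release channel related to the cardiac one, was 0.890 to 3.65 against 0.240 to 0.852 (1.35). All 4 are present at few reads, and they passed the filter only through the libraries with Myl7 and so had to differ. Fgf12, an intracellular regulator of sodium channels, was 0.422 to 11.5 with Myl7, highest in osimertinib libraries 2 and 4, and 0.0541 to 0.656 without it, so that it overlapped between the classes.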
